A study of Mus musculus with 8 samples.

Results

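Genes of fatty acid oxidation, together with genes that the nuclear receptor PPARA is known to induce, were followed in glomeruli isolated from mouse kidneys. The list named 41 genes by symbol, and for each the probe set with that single symbol and the highest mean over all arrays was taken. Of the 41, 39 were measured, among 22180 genes in all, and Acsl1 and Cyp4a10 were not analysed here. The measured members comprise 19 mitochondrial genes, 9 peroxisomal genes, 9 PPARA-induced genes and 2 regulators. Control mice (2 arrays) had doxycycline for 3 weeks from an age of 8 weeks. Mice of the line Tln1 Pod-rtTA TetO-Cre had the same doxycycline course and then vehicle (Tln1 vehicle, 3 arrays) or valproic acid, a histone deacetylase inhibitor (Tln1 VPA, 3 arrays), for 2 weeks, and all mice were 13 weeks old. By its name, the line carries a doxycycline-driven Cre that acts on Tln1, the gene of talin 1, in podocytes alone, so the other cells of the isolate keep the gene. Neither the alleles of the control mice nor a vehicle given to them is stated in the labels. Nothing in the labels ties an array to an animal of its own, so the p values below reflect the spread between these arrays alone, which may be technical.

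Fatty acids enter mitochondria as carnitine esters and are shortened there by a cycle of acyl-CoA dehydrogenases, hydratases, hydroxyacyl-CoA dehydrogenases and thiolases. Peroxisomes shorten very long and branched chains with a parallel set of enzymes. PPARA binds fatty acids and, paired with the retinoid X receptor, induces genes of both pathways as well as genes of lipid uptake, storage and fuel choice. In the kidney, proximal tubule cells rely on fatty acid oxidation and hold much of this enzyme set, and tubule fragments commonly accompany isolated glomeruli.

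The promoters of the members were searched for the element that PPARA binds with its partner, a direct repeat of a half-site with 1 base between. Windows of 250 bases before to 50 after the start site came from RefSeq (GRCm38.p6) and covered 32 of the 41 listed genes with 34 windows. Neither the exact repeat AGGTCANAGGTCA nor the looser AGGNCANAGGNCA was in any of these windows on either strand, and they were in 0.0396% and 0.381% of all 32851 windows. At shares this low, 34 windows of any genes would seldom hold a repeat, so its absence says nothing about the members. The 9 listed genes without a window, among them Angptl4, Lpl and Cyp4a14, were not searched. The half-site AGGTCA alone, which is part of the exact repeat, was in 5 of the 34 windows (14.7%), those of Acadm, Plin2, Cd36, Acadvl and Cpt1a, and in 16.3% of all windows. The 250 bases before the start site are shown for 3 of them whose values are described below, Cpt1a (chr19:3323051-3323300, plus strand), Plin2 (chr4:86670060-86670309, minus strand) and Cd36 (chr5:17835897-17836146, minus strand), each 5′ to 3′ along the gene. Capitals mark the half-site, which lies on the opposite strand in all 3, with its first printed base 94, 218 and 228 bases before the start site.
Cpt1a: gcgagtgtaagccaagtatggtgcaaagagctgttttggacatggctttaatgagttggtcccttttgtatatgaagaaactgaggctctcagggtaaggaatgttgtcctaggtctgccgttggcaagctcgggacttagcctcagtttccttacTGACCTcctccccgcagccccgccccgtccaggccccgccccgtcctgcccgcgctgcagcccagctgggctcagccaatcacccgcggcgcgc
Plin2: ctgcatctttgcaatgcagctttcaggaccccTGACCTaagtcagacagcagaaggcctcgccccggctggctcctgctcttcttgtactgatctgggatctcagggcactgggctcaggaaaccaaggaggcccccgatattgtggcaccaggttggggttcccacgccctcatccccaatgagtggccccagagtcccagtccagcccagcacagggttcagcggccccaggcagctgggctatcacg
Cd36: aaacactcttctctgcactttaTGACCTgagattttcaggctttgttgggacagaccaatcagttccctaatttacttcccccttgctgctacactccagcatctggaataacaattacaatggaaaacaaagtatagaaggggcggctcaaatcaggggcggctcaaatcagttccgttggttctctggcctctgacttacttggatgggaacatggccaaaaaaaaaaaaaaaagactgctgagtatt

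By their correlation over all probe sets, the 8 arrays split into 2 sets, each of which holds every group. The second set is made up of 3 arrays, control 2 and the third array of both Tln1 groups, and the first set is the other 5. Exactly equal values were shared by 4.81% to 6.29% of probe sets between arrays of the first set and by 9.09% to 10.5% between arrays of the second. Across the sets, pairs of arrays shared between 0 and 2 such values among 41345 probe sets. The summary step of RMA, the method named by the submitters, can give arrays of 1 run the same value. Which arrays were processed in 1 run is not given in the sources used here, and levels set across the array sets carry this limit. Markers of glomerular cells and of tubule were both present. The 17 podocyte markers averaged 7.61 to 8.15 (log2) over the first-set arrays, against 8.58 to 9.19 over the second. The 25 proximal tubule markers averaged 10.9 to 11.3 in the first-set arrays, against 9.84 to 10.5. Tln1, the targeted gene, read 8.97 and 8.64 in the control arrays, 8.95, 8.95 and 8.60 under vehicle and 8.76, 8.88 and 8.59 under valproic acid. It thus did not set the groups apart in the whole isolate, and the labels do not say whether the probes fall in the part of the gene that Cre removes. The mean of the Y-linked genes was 3.57 in control 1, between 4.85 and 6.996 in the first-set Tln1 arrays and at most 2.72 in the second set. Xist, which female cells express, read 7.38 to 10.9 over all 8 arrays and was lowest in Tln1 vehicle 2. The labels give neither the sex of the mice nor whether animals were pooled, so the Y-linked mean used as a covariate below is a measured signal and not a sex. It differs with both the array set and the group. Every fit with this covariate thus also takes in part of those differences and cannot tell them apart.

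Over the members, 35 of 39 were lower in the second set, with a median of -0.71 log2 units, while their medians between groups lay from 0.05 to 0.09. All 19 mitochondrial and all 9 peroxisomal members were lower in the second set, by a median of -0.64 and -0.83, with the group held fixed. The 25 proximal tubule markers were likewise all lower there, with a median of -0.89, while the median over all genes was -0.14. These differences describe sets that were drawn from the same arrays and carry no test. In the mitochondrial members, the first-set mean log2 level was 9.10 for control, 9.15 and 9.17 for vehicle and 9.23 and 9.16 for valproic acid. The second-set means were 8.60, 8.41 and 8.59 for the same groups. The groups thus overlap, and their spread follows the set. In a bulk isolate, fewer cells of a type and less RNA per cell cannot be told apart. Values per array are log2 levels in the order of the array numbers.

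**Figure D1:**
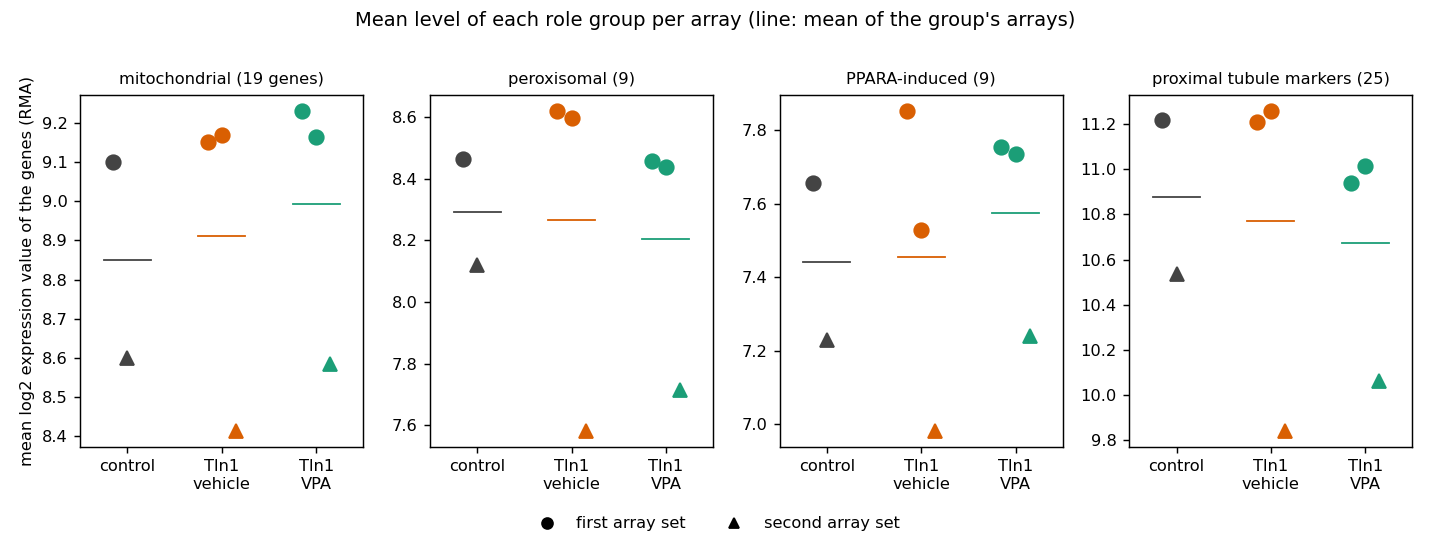
Mean log2 level of the mitochondrial, peroxisomal and PPARA-induced members and of the proximal tubule markers (vertical axis) in each array, by group (horizontal axis), with circles for the first and triangles for the second array set and a line at each group's mean. The second-set arrays are the lowest of their group in all 4 panels, and the mitochondrial means of the groups lie at 8.85, 8.91 and 8.99.

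In Tln1 vehicle (n = 3) against control (n = 2), the oxidation enzymes had median changes near 0, and the largest differences among members were those of 4 PPARA-induced genes of lipid uptake and hydroxylation. Angptl4 (log2 change -1.16, SE 0.28) and Cyp4a14 (-1.76, SE 0.64) were lower, and Lpl (0.92, SE 0.35) and Cd36 (2.30, SE 1.05) were higher. The median change was 0.06 log2 units in the mitochondrial, 0.05 in the peroxisomal and 0.00 in the PPARA-induced members, beside 0.02 over all genes. Of the endothelial markers 12 of 15 were higher (median 0.24, with -0.12 inside the first set and 0.89 inside the second), and of the proximal tubule markers 21 of 25 were lower (median -0.14), and their part in the members' values was not tested. No member passed limma over all genes (0 of 39, adjusted p = 1 for each), and 0% of the 22180 genes did. At an unadjusted p below 0.05, 1 member was higher, beside 0.78% of all genes, and 2 were lower, beside 0.672%. The arrays of both groups stood clear of each other for 1 higher member (Lpl; 4.78% of all genes) and 2 lower members (Angptl4 and Cyp4a14; 3.59% of all genes).

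In Tln1 VPA (n = 3) against Tln1 vehicle (n = 3), Angptl4 (log2 change 0.98, SE 0.25) and Pdk4 (0.71, SE 0.27) were higher, and Lpl (-1.01, SE 0.32) was lower. Cd36 was at -1.34 (SE 0.93), Cyp4a14 at 0.83 (SE 0.57) and Plin2 at 0.45 (SE 0.34). Both comparisons use the Tln1 vehicle arrays, so opposite signs in them are not independent, and the comparisons with control share the control arrays. Of the 9 PPARA-induced members, 6 were higher and 3 lower, with a median of 0.33, beside 0.09 in the mitochondrial members, -0.03 in the peroxisomal members and 0.00 over all genes. All 9 had the same sign in both array sets, which held for 42.8% of all genes, and for 9 of 19 mitochondrial and 3 of 9 peroxisomal members. It also held for 16 of 17 podocyte, 11 of 12 macrophage and 12 of 15 endothelial markers, and for 8 of 25 proximal tubule markers. Between Tln1 vehicle 3 and Tln1 VPA 3, 10.4% of probe sets held equal values. Their second-set change of 0 counts as neither sign, which lowers the share over all genes. The 9 include Fgf21, whose values are low, and each group has 1 array in the second set. In the same comparison 14 of 15 endothelial and 15 of 17 podocyte markers were lower (medians -0.32 and -0.24) and 11 of 12 macrophage markers higher (median 0.47), and their part in the members' values was not tested. The median of the PPARA-induced members depended on the second-set arrays: it was -0.066 without Tln1 vehicle 3 and 0.66 without Tln1 VPA 3. No member passed limma (0 of 39, adjusted p = 1 for each; 0% of all genes). At an unadjusted p below 0.05, 2 members were higher (0.834% of all genes) and 1 lower (0.428%). The arrays of both groups stood clear of each other for 2 higher members, Angptl4 and Pdk4, where 1.98% of all genes did so, and for 0 lower members, where 1.57% did.

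In Tln1 VPA (n = 3) against control (n = 2), Pdk4 was higher (log2 change 0.94, SE 0.30), and Eci3, a peroxisomal isomerase (-1.16, SE 0.55), and Cyp4a14 (-0.93, SE 0.64) were lower. Of the 19 mitochondrial members, 17 were higher, with a median change of 0.11, beside 0.02 over all genes. That count was 11 of 19, with a median of 0.01, when the array set was a term of the fit, and 18 of 19, with a median of 0.23, when the mean of the proximal tubule markers was a covariate. With the Y-linked mean as a covariate 7 of 19 were higher (median -0.16). Inside the first set 11 of 19 were higher (median 0.06) and inside the second 8 of 19 (median -0.00). The proximal tubule markers themselves were lower for 19 of 25 (median -0.18). No member passed limma (0 of 39, adjusted p = 1 for each; 0% of all genes). At an unadjusted p below 0.05, 1 member was higher (1.23% of all genes) and 0 were lower (0.64%). The arrays stood clear of each other for 3 higher members, Pdk4, Slc25a20 and Acadl (5.57% of all genes), and 3 lower ones, Angptl4, Cyp4a14 and Eci3 (3.98%).

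**Figure D2:**
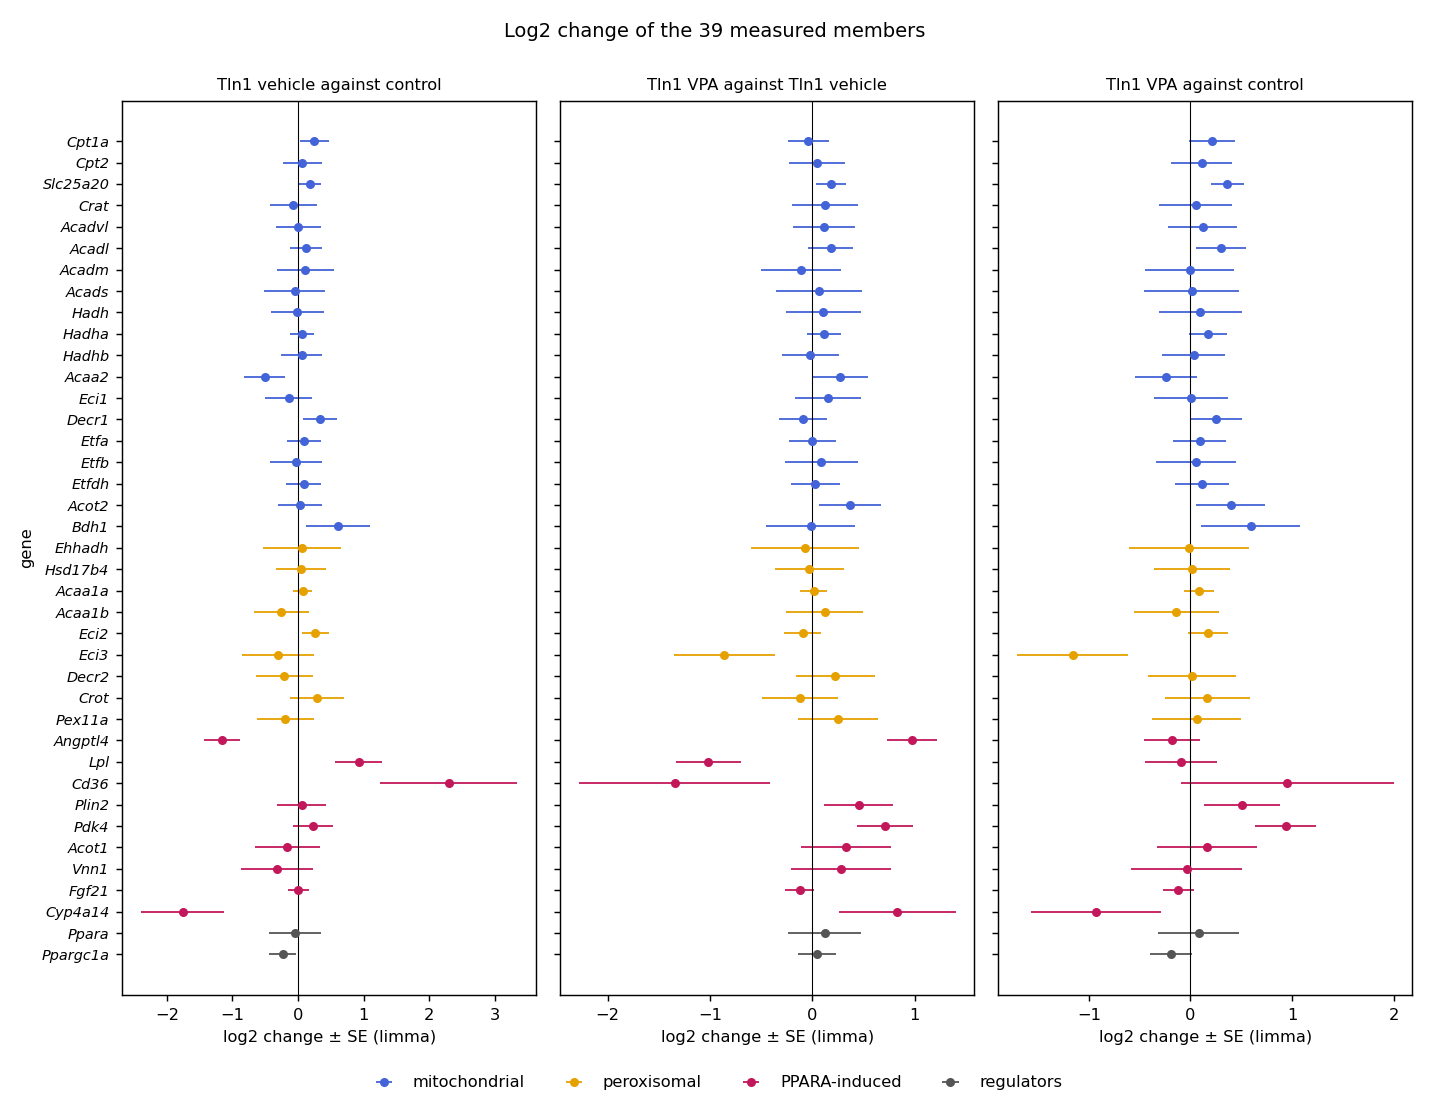
Log2 change with its standard error (horizontal axis) of each of the 39 measured members (vertical axis), in 3 panels for the 3 comparisons, coloured by role. Most oxidation enzymes lie close to 0 in every panel, and Cd36 at 2.30 and Cyp4a14 at -1.76 in Tln1 vehicle against control lie farthest out of all, Cd36 at -1.34 does so in Tln1 VPA against Tln1 vehicle and Eci3 at -1.16 in Tln1 VPA against control.

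Ppara, the receptor gene itself, followed the array sets. Against control values of 7.95 and 7.71, its log2 level was 8.24, 7.97 and 7.15 under vehicle and 8.33, 8.14 and 7.26 under valproic acid. The lowest arrays are the second-set ones, and the groups overlap. Its change was -0.04 (SE 0.40) in Tln1 vehicle against control, 0.16 in the first set but -0.56 in the second, and 0.12 (SE 0.35) in Tln1 VPA against Tln1 vehicle. Ppargc1a, a coactivator that raises mitochondrial gene expression, ran the other way over the sets. It read 9.85 and 10.01 in the control arrays, 9.53, 9.54 and 10.01 under vehicle and 9.58, 9.60 and 10.04 under valproic acid. The second-set arrays are the highest, and control 1 leads the first set. Its change was -0.24 (SE 0.21) in Tln1 vehicle against control, with -0.32 and 0.00 inside the first and second set. Control 2 and Tln1 vehicle 3 hold 1 of the equal values described above, which gives the 0.00.

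Angptl4, a secreted inhibitor of lipoprotein lipase, had the smallest p of all members. On the log2 scale it read 6.94 and 7.07 in control, then 6.42, 5.68 and 5.44 with vehicle and 6.92, 6.61 and 6.93 with valproic acid. All 3 Tln1 vehicle arrays lie below every other array, and the valproic acid arrays lie below both controls. The change in Tln1 vehicle against control was -1.16 (SE 0.28), 2.24-fold lower, with -0.89 and -1.64 inside the first and second set (limma unadjusted p = 0.00325, adjusted p = 1). The change in Tln1 VPA against Tln1 vehicle was 0.98 (SE 0.25), 1.97-fold higher, with 0.72 and 1.49 in the sets. Both kept their sign in all 18 alternatives, between -1.45 and -0.89 and between 0.72 and 1.26. Against control, Tln1 VPA was at -0.19 (SE 0.28). With the Y-linked mean as a covariate, an alternative added after the data had been seen, the first 2 changes were -1.23 and 0.9999.

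Lpl, the lipoprotein lipase that Angptl4 inhibits, was highest in Tln1 vehicle. The control arrays read 9.15 and 9.24, the vehicle arrays 10.12, 10.68 and 9.56, and the valproic acid arrays 8.94, 9.63 and 8.75. Each Tln1 vehicle array exceeds both controls, and Tln1 VPA 2 alone of its group reaches into the Tln1 vehicle range. The change was 0.92 (SE 0.35) in Tln1 vehicle against control, 1.90-fold higher, with 1.25 and 0.32 inside the first and second set. In Tln1 VPA against Tln1 vehicle it was -1.01 (SE 0.32), 2.02-fold lower, with -1.12 and -0.81 in the sets. It was not called in either (limma unadjusted p = 0.0328 and 0.0135, adjusted p = 1). With the Y-linked mean as a covariate these changes were 0.45 and -0.84. Adipocytes are also known to make Lpl. Of their 8 markers, 5 were higher in Tln1 vehicle against control (median 0.02) and 7 lower in Tln1 VPA against Tln1 vehicle (median -0.07), and the mean of the list was 4.14 to 5.06 over the arrays. Adipoq, which defines adipocytes, was between 2.73 and 3.15, Plin1 between 4.29 and 4.54 and Fabp4 between 6.48 and 8.54. Car3 of the same list read 5.81 and 3.27 in the control arrays, 8.13, 9.10 and 4.45 under vehicle and 7.29, 8.45 and 4.16 under valproic acid. Its changes had the signs of those of Lpl and Cd36 in both of these comparisons and both sets (2.80 and 1.19, then -0.74 and -0.30). Inside the first set, Car3 alone of the 8 markers was higher in Tln1 vehicle against control (median -0.19). Inside the second set 5 were higher (median 0.34). Fabp4 had the opposite signs over all arrays, at -0.45 and then 0.75. Car3 was highest in Tln1 vehicle 2, as was the Y-linked signal. The part of adipocyte RNA in the values of Lpl and Cd36 was not tested.

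Cd36, a fatty acid translocase, varied more than any other member. Against control values of 7.13 and 5.64, its log2 level was 9.13, 10.06 and 6.85 under vehicle and 7.65, 8.44 and 5.92 under valproic acid. Within each array set the Tln1 vehicle arrays are highest and the control array lowest, and over all arrays the groups overlap. The change was 2.30 (SE 1.05) in Tln1 vehicle against control, with 2.47 and 1.21 inside the first and second set, and -1.34 (SE 0.93) in Tln1 VPA against Tln1 vehicle, with -1.55 and -0.93. Eif2s3y, which is Y-linked, read 3.80 in the first-set control array, 6.46 and 7.71 under vehicle and 5.43 and 6.51 under valproic acid, and thus moved with Cd36 in the first set. In the second set Eif2s3y lay between 2.69 and 2.91. With the Y-linked mean as a covariate, the changes of Cd36 were 0.72 and -0.76. That mean differs with array set and group, so these changes cannot be read as freed of the Y-linked signal alone. Without a single array the first change lay between 1.55 and 3.21 and the second between -2.26 and -0.64.

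Pdk4, the kinase that shuts pyruvate dehydrogenase and so favours fatty acids as fuel, was highest with valproic acid. On the log2 scale it read 6.87 and 7.21 in control, then 7.82, 6.67 and 7.31 with vehicle and 8.07, 7.86 and 8.00 with valproic acid. All 3 valproic acid arrays lie above all others, with Tln1 vehicle 1 close under the lowest of them. The change was 0.71 (SE 0.27) in Tln1 VPA against Tln1 vehicle, 1.64-fold higher, 0.72 inside the first set and 0.69 inside the second (limma unadjusted p = 0.0316, adjusted p = 1). Against control it was 0.94 (SE 0.30), with 1.09 and 0.80 in the sets. Without a single array these changes lay between 0.41 and 0.99 and between 0.77 and 1.10. Tln1 vehicle against control was at 0.22 (SE 0.30), and at -0.05 without Tln1 vehicle 1.

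Plin2, a coat protein of lipid droplets, showed its order only within the sets. Its log2 level was 8.02 in control 1 and in Tln1 vehicle 1 and 2, 1 of the equal values described above, and 8.43 and 8.29 in Tln1 VPA 1 and 2. The second-set arrays read 7.26 for control, 7.05 for vehicle and 7.72 for valproic acid. The Tln1 VPA arrays are highest in each set, and over all arrays the groups overlap. The change in Tln1 VPA against Tln1 vehicle was 0.45 (SE 0.34), with 0.34 and 0.67 in the sets, and 0.51 (SE 0.38) against control, with 0.34 and 0.46. It was called in no alternative, where the limma adjusted p ran from 0.566 to 1 and from 0.144 to 1. Without a single array the changes lay between 0.13 (without Tln1 vehicle 3) and 0.66, and between 0.13 (without control 2) and 0.89 (without control 1).

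Cyp4a14, a fatty acid omega-hydroxylase and a classic PPARA target of mouse liver and kidney, was highest in control. The control arrays read 10.63 and 11.04, the vehicle arrays 9.91, 7.57 and 9.76, and the valproic acid arrays 9.98, 9.67 and 10.08. Every Tln1 array lies below both controls, and Tln1 vehicle 2, the array with the highest Y-linked signal, lies far below the rest. The change in Tln1 vehicle against control was -1.76 (SE 0.64), and -1.01 without Tln1 vehicle 2. In Tln1 VPA against control it was -0.93 (SE 0.64), with -0.81 and -0.97 in the sets. The change in Tln1 VPA against Tln1 vehicle, 0.83 (SE 0.57), was 0.08 without Tln1 vehicle 2. With the Y-linked mean as a covariate the 2 changes against control were -1.15 and -0.55. Cyp4a genes are close copies of each other, so their probe sets may share signal.

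**Figure D3:**
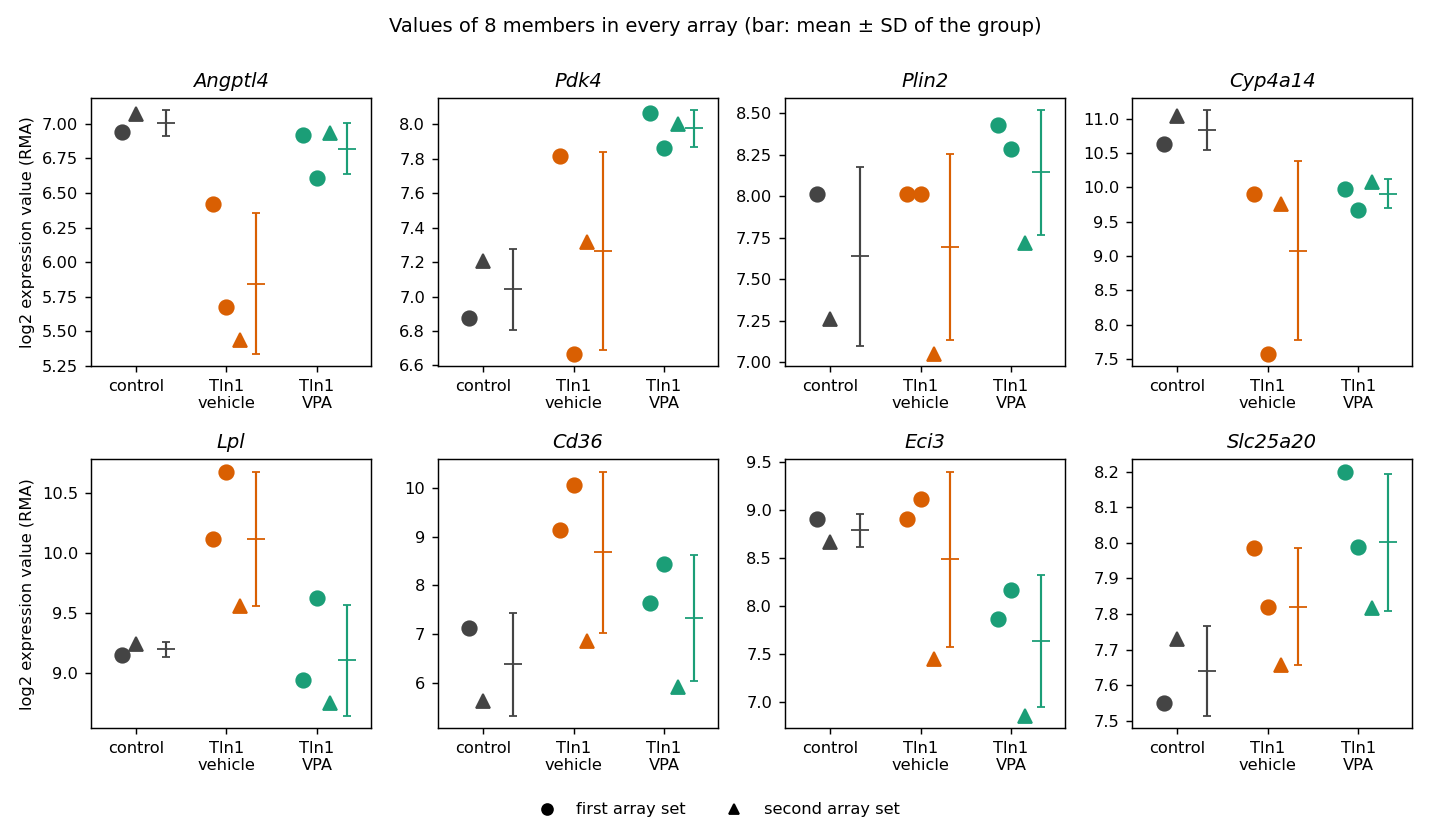
Log2 expression value (vertical axis) of 8 members in every array, by group (horizontal axis), with circles for the first and triangles for the second array set and a bar for the mean and SD of each group. Angptl4 is lowest in the 3 Tln1 vehicle arrays (5.44 to 6.42) and Pdk4 highest in the 3 Tln1 VPA arrays (7.86 to 8.07), while Plin2, Cd36 and Eci3 also part by array set.

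Of the other PPARA-induced members, Vnn1, a pantetheinase, and Acot1, a cytosolic acyl-CoA thioesterase, followed the sets. Vnn1 ranged from 7.52 to 9.27 and Acot1 from 5.32 to 6.94, with changes of 0.28 (SE 0.49) and 0.33 (SE 0.44) in Tln1 VPA against Tln1 vehicle. Acot1 and the mitochondrial Acot2 are near-identical copies, and their probe sets may share signal. Fgf21, a hormone that PPARA induces in the liver, stayed between 3.59 and 4.05, below the median gene mean of 4.92, and no order can be read from such low values.

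The mitochondrial members begin with the carnitine shuttle. Cpt1a, the gate of entry, read 10.46 and 10.18 in the control arrays, 10.68, 10.85 and 10.18 under vehicle and 10.68, 10.62 and 10.29 under valproic acid. The first-set Tln1 arrays all exceed control 1 and the second-set arrays are nearly level. There, control 2 and Tln1 vehicle 3 hold 1 of the equal values described above. Its change was 0.25 (SE 0.23) in Tln1 vehicle against control and -0.04 (SE 0.20) in Tln1 VPA against Tln1 vehicle. Slc25a20, the carnitine-acylcarnitine carrier, had the smallest p among mitochondrial members, and differed less between the sets than the rest (-0.14). It read 7.55 and 7.73 in the control arrays, 7.99, 7.82 and 7.66 under vehicle and 8.20, 7.99 and 7.82 under valproic acid. All 3 Tln1 VPA arrays exceed both controls, with a change of 0.36 (SE 0.16), 0.54 and 0.09 inside the sets (limma unadjusted p = 0.0587, adjusted p = 1).

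Within the cycle, Acadm, the medium-chain dehydrogenase, read 11.56 and 10.90 in the control arrays, 11.76, 11.74 and 10.51 under vehicle and 11.52, 11.45 and 10.70 under valproic acid. Its changes of 0.11 (SE 0.44) in Tln1 vehicle against control, -0.11 (SE 0.39) in Tln1 VPA against Tln1 vehicle and -0.01 (SE 0.44) in Tln1 VPA against control are all smaller than their error. The first was 0.19 and -0.39 in the sets. Hadha, the alpha subunit of the trifunctional protein, read 10.66 and 10.23 in the control arrays, 10.66, 10.54 and 10.30 under vehicle and 10.79, 10.61 and 10.44 under valproic acid. Its changes ranged from 0.06 to 0.17 over the 3 comparisons. The probe set of Hadhb, the beta subunit, stayed between 4.13 and 4.93, near the median gene mean. The members Acadvl, Acads, Hadh, Cpt2, Crat, Eci1, Etfa, Etfb and Etfdh, which serve the same cycle or pass its electrons on, differed by at most 0.15 in size in each comparison. Acadl, the long-chain dehydrogenase, was higher in all 3 valproic acid arrays than in both controls, by 0.30 (SE 0.24). The mitochondrial thioesterase Acot2 was at 0.37 (SE 0.30) in Tln1 VPA against Tln1 vehicle and at 0.40 (SE 0.34) against control.

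Acaa2, the mitochondrial thiolase that closes the cycle, was lower in Tln1 vehicle than in control within each set. It read 10.07 and 9.42 in the control arrays, 9.74, 9.25 and 8.71 under vehicle and 9.63, 9.45 and 9.42 under valproic acid. Its change was -0.51 (SE 0.31) in Tln1 vehicle against control, with -0.58 and -0.71 in the sets, and 0.27 (SE 0.27) in Tln1 VPA against Tln1 vehicle, with 0.05 and 0.70. The first was -0.19 without control 1 and -0.84 without control 2. The second was 0.0073 without Tln1 vehicle 3 and 0.52 without Tln1 vehicle 1. Bdh1, a ketone body dehydrogenase, read 5.41 and 4.48 in the control arrays, 5.54, 6.03 and 5.10 under vehicle and 5.75, 6.18 and 4.68 under valproic acid. Both Tln1 groups were higher than control in each set, by 0.61 (SE 0.49) and 0.59 (SE 0.49) over all arrays, or -0.03 and 0.19 with the Y-linked mean as a covariate. Decr1, the dienoyl-CoA reductase for unsaturated chains, read 7.25 and 7.08 in the control arrays, 7.61, 7.75 and 7.14 under vehicle and 7.76, 7.47 and 7.005 under valproic acid. Its change of 0.34 (SE 0.26) in Tln1 vehicle against control was 0.02 with the Y-linked mean as a covariate.

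Among the peroxisomal members, Eci3, an enoyl-CoA isomerase, differed most. On the log2 scale it read 8.91 and 8.67 in control, then 8.91, 9.12 and 7.44 with vehicle and 7.87, 8.17 and 6.86 with valproic acid. The Tln1 VPA arrays are the lowest of their set in both sets, and Tln1 vehicle 3 is also low. Its change was -1.16 (SE 0.55) in Tln1 VPA against control, 2.23-fold lower, with -0.89 and -1.81 in the sets (limma unadjusted p = 0.0691, adjusted p = 1). In Tln1 VPA against Tln1 vehicle it was -0.86 (SE 0.49), with -0.99 and -0.59, and it was -1.38 without Tln1 vehicle 3 and -0.47 without Tln1 VPA 3. In the fit with the Y-linked mean as a covariate, the change against control was -1.67 (limma adjusted p = 0.0316, which ran from 0.0316 to 1 over the alternatives). The related isomerase Eci2 read 7.10 and 7.41 in the control arrays, 7.58, 7.73 and 7.24 under vehicle and 7.32, 7.66 and 7.29 under valproic acid. Its change was -0.09 (SE 0.18) in Tln1 VPA against Tln1 vehicle.

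Ehhadh, the peroxisomal bifunctional enzyme and a strong PPARA target in liver, read 9.84 and 9.27 in the control arrays, 10.26, 10.25 and 8.33 under vehicle and 9.89, 9.75 and 8.996 under valproic acid. Its sign turned between the sets: Tln1 vehicle against control was 0.41 in the first, -0.94 in the second. Crot, which exports shortened chains as carnitine esters, also turned, with 0.47 and -0.31. It read 9.06 and 8.61 in the control arrays, 9.49, 9.57 and 8.30 under vehicle and 9.33, 9.16 and 8.51 under valproic acid. Pex11a, a factor of peroxisome division, read 6.71 and 6.55 in the control arrays, 6.96, 6.77 and 5.58 under vehicle and 7.03, 6.94 and 6.10 under valproic acid. Its changes in Tln1 vehicle against control were 0.16 and -0.97 in the sets. The proximal tubule markers had medians of -0.10 and -0.78 in the same comparison, and their part in these changes was not tested. Hsd17b4, Decr2, Acaa1a and Acaa1b complete the group with changes between -0.26 and 0.22 in the 3 comparisons, and the thiolases Acaa1a and Acaa1b are close copies whose probe sets may share signal.

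**Figure D4:**
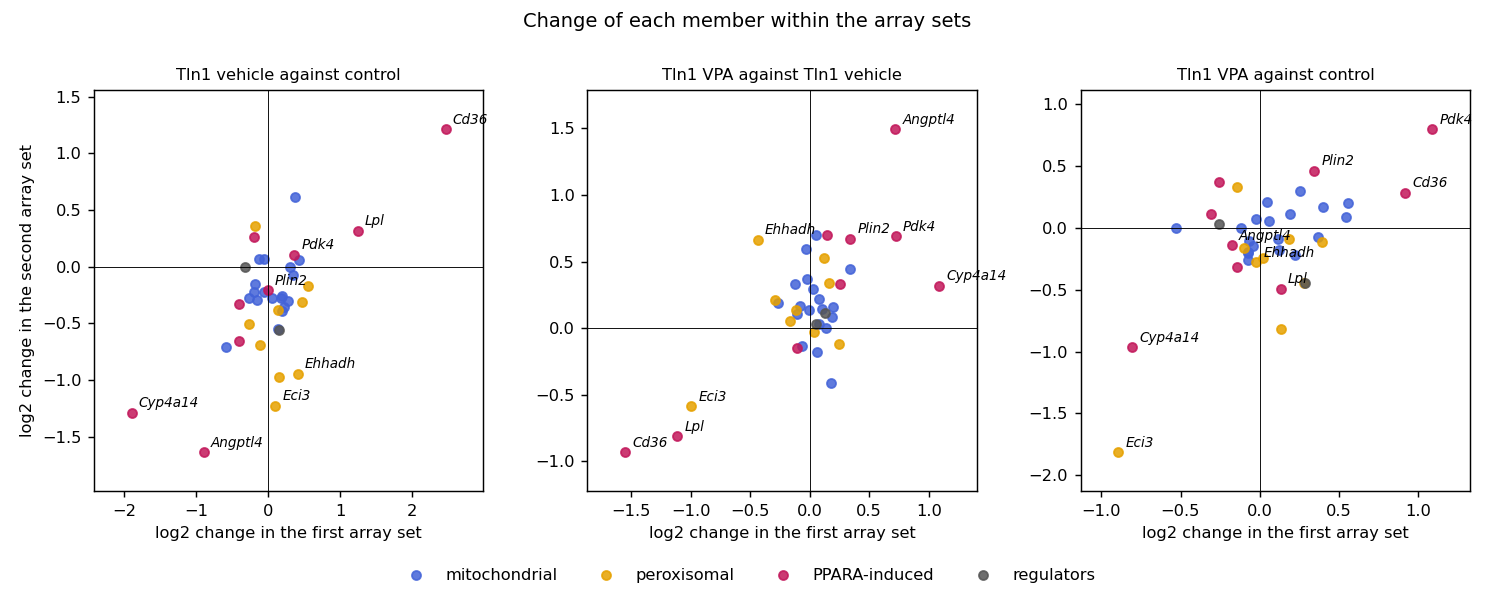
Log2 change of each member in the first array set (horizontal axis) against that in the second (vertical axis), in 3 panels for the 3 comparisons and coloured by role; in the second set each group has 1 array. In Tln1 VPA against Tln1 vehicle, Angptl4 (0.72 and 1.49) and Pdk4 (0.72 and 0.69) lie in the upper right and Cd36, Lpl and Eci3 in the lower left, while Ehhadh (-0.44 and 0.67) changes sign.

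Other genes of the pathway were taken from lists that hold no member. Of 38 further fatty acid oxidation genes, 22 were higher and 16 lower in Tln1 vehicle against control (median 0.03), and 13 higher and 25 lower in Tln1 VPA against Tln1 vehicle (median -0.07). Of 36 further PPARA targets and partners, 19 were higher and 17 lower in the first and 20 higher and 16 lower in the second comparison. In Tln1 VPA against control, 15 of 38 and 17 of 36 were higher. Over all genes, 55.6%, 51.3% and 56.8% were higher in these comparisons, in the same order. None of the 38 or of the 36 passed limma in any comparison, where 0% of all genes did. At an unadjusted p below 0.05, 2 and 3 of them differed in Tln1 vehicle against control, 0 and 0 in Tln1 VPA against Tln1 vehicle and 4 and 4 in Tln1 VPA against control. Over all genes the shares at that p were 0.78% higher and 0.672% lower, 0.834% and 0.428%, and 1.23% and 0.64%. Arrays of the groups stood clear of each other in Tln1 vehicle against control for 1 higher and 2 lower of the 38. The counts were 2 and 3 of the 36, beside 4.78% and 3.59% of all genes. In Tln1 VPA against Tln1 vehicle they were 1 and 0, then 0 and 0, beside 1.98% and 1.57%. In Tln1 VPA against control they were 1 and 4, then 3 and 4, beside 5.57% and 3.98%. Acsl5, an acyl-CoA synthetase, read 8.17 and 8.24 in the control arrays, 8.54, 8.49 and 8.57 under vehicle and 8.80, 8.57 and 8.69 under valproic acid. Every Tln1 array lies above both controls, and its change was 0.33 (SE 0.12) in Tln1 vehicle and 0.48 (SE 0.12) in Tln1 VPA against control. Hacl1, a peroxisomal lyase of alpha-oxidation, read 9.31 and 9.09 in the control arrays, 8.73, 8.04 and 7.80 under vehicle and 8.42, 8.08 and 8.21 under valproic acid. Every Tln1 array lies below both controls, with changes of -1.004 (SE 0.26) and -0.96 (SE 0.26). Acsm5, a medium-chain acyl-CoA synthetase, read 9.56 and 8.95 in the control arrays, 9.09, 9.31 and 8.46 under vehicle and 7.98, 8.62 and 8.53 under valproic acid. Its change was -0.88 (SE 0.31) in Tln1 VPA against control.

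Scd1, the stearoyl-CoA desaturase, read 8.55 and 7.58 in the control arrays, 6.21, 4.99 and 6.31 under vehicle and 6.87, 6.81 and 5.55 under valproic acid. Every Tln1 array lies below both controls, with changes of -2.23 (SE 0.55) and -1.66 (SE 0.55). Cyp4a12a and Cyp4a12b, omega-hydroxylases that male mouse kidney is known to make in larger amounts, were higher in every Tln1 array. Cyp4a12a read 4.79 and 4.59 in the control arrays, 8.44, 9.40 and 5.63 under vehicle and 7.36, 8.31 and 6.85 under valproic acid. It was highest in Tln1 vehicle 2, as was the Y-linked signal, and its change in Tln1 vehicle against control was 3.13 (SE 0.99), or 1.71 with the Y-linked mean as a covariate. Both control arrays lie below the median gene mean, so the size of this difference is not firmly set. Cyp4a12b read 5.44 and 4.89 in the control arrays, 6.51, 6.53 and 6.53 under vehicle and 6.26, 6.90 and 6.41 under valproic acid, with changes of 1.35 (SE 0.23) against control in both Tln1 groups. In the second set, where the Y-linked mean was between 2.56 and 2.72, the changes of Cyp4a12a and Cyp4a12b in Tln1 vehicle against control were 1.04 and 1.63.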

How the data were processed

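Total RNA of isolated glomeruli was hybridised as biotinylated cRNA to Affymetrix arrays, per the labels' protocols. The log2 expression values were deposited by the authors, and the submitters' processing notes name RMA and limma. Their versions, the probe annotation and the build used are not given in these sources. Values ran from 1.49 to 13.9 over 41345 probe sets, of which 23521 had 1 gene symbol, 1814 several and 16010 none. Of the members, 2 had 2 probe sets. All 3 comparisons came from 1 fit (lmFit and eBayes of limma 3.58.1 in R 4.3.3, group as the only term, two-sided), with Benjamini-Hochberg adjustment over 22180 genes and calls below 0.05. The fit was tested on simulated data that held no array sets and no correlation between genes, so that test does not cover these features of the arrays. Array sets are 2 clusters by average linkage on correlation. The main fit holds no term for them, so its errors take in the difference between the sets. With the array set as a term, the median residual SD over genes was 0.123, against 0.214 without it. The smallest limma adjusted p of a member was then 0.412 in Tln1 vehicle against control. It was 0.789 in Tln1 VPA against Tln1 vehicle and 0.289 in Tln1 VPA against control.

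The members, lists, tests and alternatives were chosen with earlier results of these data known. Values per array are given for the 4 members of each role with the smallest p in any comparison (both where a role has 2) and for 10 members chosen by name, and for the 3 genes of each further pathway list with the smallest p; other members named were chosen after their values were seen.

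Deviations from the group mean correlated across genes (which are not independent replicates) between vehicle and valproic acid arrays of the same number, with r = 0.570, 0.609 and 0.787. Unlike numbers within the first set came close, with r = 0.515 (vehicle 1, valproic acid 2) and 0.510 (vehicle 2, valproic acid 1). The check thus cannot tell a pairing by number from the array sets. The changes, errors and p values given are unpaired, and a fit with the array numbers as a term (replicate block) is an alternative. No pairing is stated in the labels, and the pairs follow the array sets. The number of arrays limits the precision.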

Additional observations from a re-analysis of the deposited data

How the results depend on the processing

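Each result was refitted under 18 alternatives. Of 12 median changes by role, 8 stayed within the spread between arrays in all of them. That spread takes in the difference between the array sets and is wide beside the medians, so a median inside it may change sign. The mitochondrial median in Tln1 vehicle against control, 0.06, is among the 8 and ran from -0.36 to 0.30. With the Y-linked covariate, the medians in Tln1 vehicle against control were -0.74 for peroxisomal and -0.43 for PPARA-induced members. The PPARA-induced median lay between -0.32 and 0.20 without a single array in that comparison, between -0.066 and 0.66 in Tln1 VPA against Tln1 vehicle and between -0.12 and 0.47 in Tln1 VPA against control. The ends of these ranges came without control 2 and Tln1 vehicle 3, without Tln1 vehicle 3 and Tln1 VPA 3, and without control 2 and control 1, and the cause was not tested. Of 78 changes of named genes, 44 kept their sign in every alternative and 34 did not. The replicate block, with the array numbers as a term, changed no call in Tln1 VPA against Tln1 vehicle. In the comparisons with control only 2 numbers are shared, 1 pair of which crosses the array sets, so they share a number alone. The block there used only the arrays of those 2 numbers, so control 2 was its only second-set array. Its changes thus take in the difference between the sets, which was -2.18 for Cd36 (second against first). The calls of that fit cannot be read as those of paired arrays. The block called 52 genes in Tln1 vehicle and 117 in Tln1 VPA against control. It called 1 member in each, Cd36, at 3.21 and 1.66, and gave a PPARA-induced median of 0.36 in the latter. Of the further genes it called Cyp4a12a (4.23 and 3.14) and Scd1 (-2.47 and -1.23) in both and Cyp4a12b (1.41) in the latter. With the Y-linked covariate, 21 genes were called in Tln1 VPA against control, 1 of them a member, Eci3. This covariate differs with array set and group, so neither its calls nor its medians can be told apart from those differences. The other alternatives called 0 genes in each comparison.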
